A study of Mus musculus with 6 samples.

Results

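Isolated peaks are regions of open chromatin with no other peak nearby in the table. They were chosen by position, width and score. The limits were a width under 2000 bp, a peak score given by the authors under 200, and more than 100 kb to the next peak. That distance was taken between midpoints and had to hold on each side. The first and last peak of each chromosome were left out. Of 43020 peaks in all, 1829 (4.25%) met the rule. The rule itself used neither the groups nor the counts per library. How the score was made and how the authors left peaks out of the table are not stated. Whether either drew on the reads of these libraries is thus not known. Accessibility was compared between groups within this set.

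The peaks come from ATAC-seq of mouse colon cancer organoids, which are clusters of tumour cells grown in culture. All 6 libraries carry the genotype label AKP. The naive group held 3 libraries of organoids with no recipient mouse. The other 3 libraries, the primary tumour group, are from organoid lines. Each was grown out of a tumour that naive organoids, delivered by colonoscopy, had formed in the colon of an immunocompetent C57Bl6 mouse, and was passaged until it held no cells other than cancer cells. The sources used here give neither the age of the mice nor the origin of the 3 naive replicates, so the p-values for naive organoids measure the spread between these libraries, which may be technical. Life in the mouse, outgrowth and later passages are shared by all 3 lines and cannot be told apart. The peak totals ran from 1185356 reads in naive replicate 1 to 5987545 in naive replicate 2. Primary tumour replicate 1 was the next deepest, with 3594735. Depth here means this total of reads within peaks, and the number of reads sequenced per library was not used.

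ATAC-seq cuts and tags DNA where nucleosomes leave room for the Tn5 transposase, so reads pile up over promoters, enhancers and insulators. Such elements usually lie in groups around genes. Long stretches with few genes, often called gene deserts, hold fewer of them, and an element in a desert can act on a promoter far away by looping of the chromatin. Whether any isolated peak is an enhancer, an insulator or a promoter was not measured here. Genes near the peaks are not named, because no annotation of the mm9 build was used, and no sequence is printed for the same reason. The labels describe the cells as colon cancer organoids, and their marker genes were not examined.

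Isolated peaks were weaker and narrower than other peaks of the table. Their median width was 469 bp and their median score 9.91, against 714 bp and 20.7 for the 37598 peaks that met the same limits of width and score but were not isolated. Counts were put on a scale common to all libraries (CPM, reads relative to the library total) after TMM normalization, which assumes that most peaks do not change. The median over isolated peaks of the mean CPM in 6 libraries was 4.87, against 11.8 for peaks that were not isolated. In reads, the median isolated peak held a mean of 11.8 reads per library, and 43.1% of isolated peaks held fewer than 10. At least 1 library had no read at 197 isolated peaks (10.8%), against 3.91% of the peaks that were not isolated. The range was wide all the same, and the strongest isolated peak reached 123 CPM.

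Distances between an isolated peak and its nearest neighbour had a median of 179 kb, with quartiles at 128 and 292 kb. For 1033 isolated peaks the nearest peak lay 100 to 200 kb away, for 634 it lay 200 to 500 kb away, and for 162 over 500 kb. Isolated peaks often followed each other. A run of 2 or more isolated peaks with no other peak between them held 1292 of the 1829 (70.6%), and 537 stood singly between peaks with closer neighbours. The longest run had 18 isolated peaks on chromosome 1 from 109673013 to 119993940, a stretch of 10.3 Mb. Another had 17 on chromosome X from 110298877 to 122231941, over 11.9 Mb. In these runs 6 and 7 peaks were tested between groups, too few to read a share of calls from them.

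Isolation holds for the table and not for every peak the authors numbered. Peak numbers rise along each chromosome and reach 108089, so the numbers that are missing between neighbours can be counted. Only 108 isolated peaks (5.90%) had the next number on both sides. Numbers were skipped on 1 side of 614 and on both sides of 1107, with a median of 4 skipped numbers per isolated peak. Peaks within the same limits that were not isolated had no skipped number in 35.2% of cases. Where the skipped peaks lay was not analysed here.

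Chromosome X was rich in isolated peaks. They made up 186 of its 1032 peaks (18.02%), against 2.43% to 5.13% on the autosomes. The density of all peaks was 6.32 per Mb on chromosome X and 14.5 to 23.6 per Mb on autosomes, so that each peak there had more room around it. Counted per length, chromosome X had 11.4 isolated peaks per 10 Mb, and autosomes had 5.68 to 7.75. The lowest shares were found on chromosomes 11 and 19 (2.43% each), which also had the highest densities, 23.6 and 23.4 peaks per Mb. Isolated peaks of chromosome X had a median of 4.09 CPM, just under the 4.10 to 6.49 CPM of the autosomes.

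**Figure D1:**
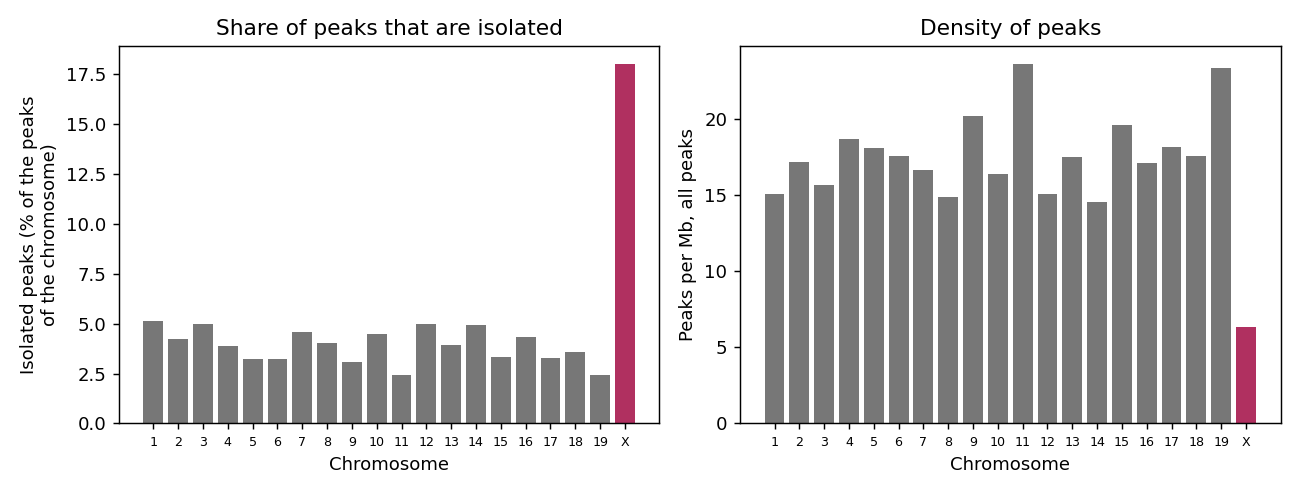
Left, isolated peaks as a percentage of all peaks of each chromosome; right, all peaks per Mb between the first and the last peak of the chromosome. Chromosome X, in red, has the highest share (18.02%) and the lowest density (6.32 per Mb); chromosome Y, with 2 peaks and no isolated one, is left out.

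Isolated peaks took a small share of the reads, and 2 libraries stood apart in it. Naive replicates 1 to 3 had shares of 1.89%, 1.54% and 1.80%. The primary tumour lines, in the same order, had 1.32%, 1.73% and 1.80%. The groups overlapped, with 1.74 ± 0.185% in naive organoids and 1.62 ± 0.259% in primary tumour lines (SD, n = 3 each). The lowest values came from the deepest libraries, primary tumour replicate 1 and naive replicate 2. Their median isolated peak had 2.57 and 2.94 CPM, and that of the other 4 libraries had 5.12 to 6.01 CPM. Over all peaks the same medians lay between 10.7 and 13.3 CPM. Depth, counted as reads within peaks, moves with this difference, and its part in it was not tested.

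The difference was also seen among peaks of like strength. All tested peaks were split into 4 equal bins by mean CPM. For each library and bin, the difference of log2(CPM + 1) from its mean over naive libraries was summarised by the median over peaks. In the weakest bin, primary tumour replicate 1 stood at -0.80 for 481 isolated peaks and at 0.07 for 8563 peaks that were not isolated. In the same bin primary tumour replicates 2 and 3 stood at 0.15 and 0.39 for isolated peaks, and at 0.20 and 0.33 for the others. In the strongest bin, with 89 isolated peaks, primary tumour replicate 1 stood at -0.23 for isolated peaks and -0.05 for the others. Naive replicate 2 was at -0.54 in the weakest bin of isolated peaks and at 0.23 in the strongest. For peaks that were not isolated it was at -0.22 and 0.17, so its rise with peak strength was seen in both sets. Weak isolated peaks were thus low in a tumour line and in a naive library alike, and the value of primary tumour replicate 1 was below that of the other lines in 3 of 4 bins.

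**Figure D2:**
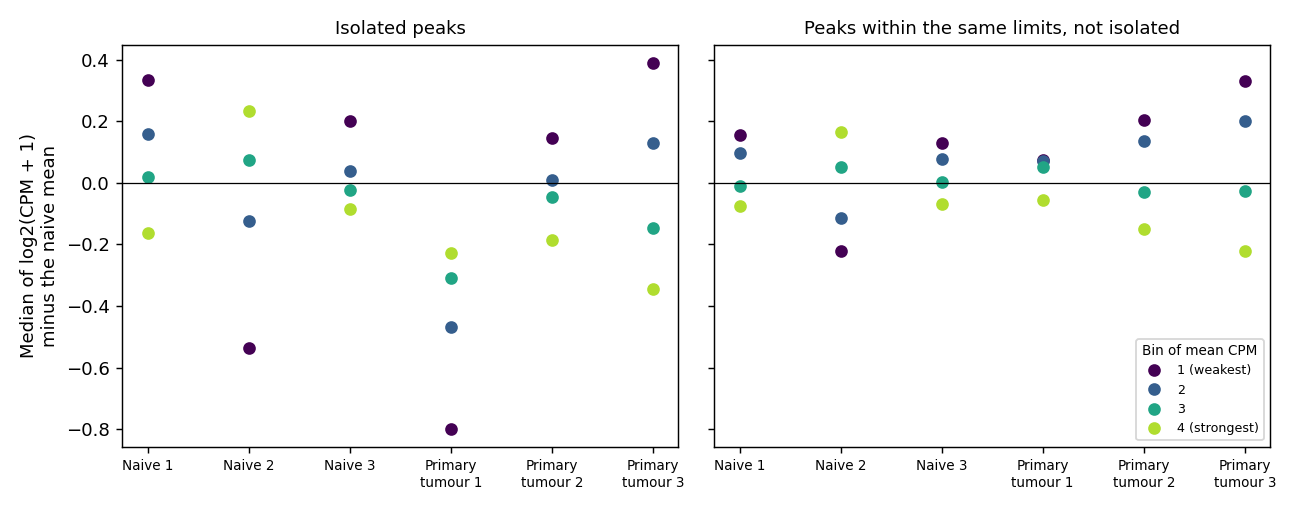
Each dot is 1 library's median difference in log2(CPM + 1) from the mean of the naive libraries, for 4 bins of mean CPM, in isolated peaks (left) and in other peaks within the same limits of width and score (right). In the weakest bin primary tumour replicate 1 lies at -0.80 for isolated peaks and at 0.07 for the others.

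The libraries were less alike at isolated peaks. Across the 1829 isolated peaks, pairs of naive libraries had a Pearson's r of log2(CPM + 1) of 0.746 to 0.846, pairs of primary tumour libraries 0.745 to 0.778, and pairs across groups 0.600 to 0.782. Across the 37598 peaks that were not isolated these ranges were 0.856 to 0.911, 0.827 to 0.861 and 0.722 to 0.788. Peaks are not independent replicates, and the lower counts of isolated peaks add counting noise to these values. In the weakest bin of mean CPM the median edgeR dispersion was 0.187 for isolated peaks and 0.156 for the others, and in the strongest it was 0.0389 and 0.0393.

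The comparison of primary tumour lines with naive organoids asked which isolated regions differed in accessibility. A filter on low counts left 1008 isolated peaks to test (55.1%) and removed 821, whose median was 2.70 CPM. Of the peaks that were not isolated, 84.0% were tested. Among the 1008, 43 (4.27%) rose and 75 (7.44%) fell in accessibility in primary tumour lines, at an adjusted p under 0.05 in edgeR's quasi-likelihood test. Over all 36179 tested peaks 8.00% were called higher and 6.40% lower (14.4% in all), and over the 31578 tested peaks within the same limits that were not isolated the shares were 8.15% and 6.25%. Calls in both directions together came to 11.7% of isolated peaks. A peak that is open in 1 group alone can pass the filter through that group, so the tested peaks do not stand for all isolated peaks.

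Losses outnumbered gains at isolated peaks, while over all tested peaks gains outnumbered losses. Higher calls made up 36.4% of the calls among isolated peaks and 56.6% among peaks that were not isolated. Peaks with a gap of over 100 kb on 1 side only also had more losses than gains, with 280 higher (6.35%) and 350 lower calls (7.93%) of 4412 tested, and 44.4% of their calls were higher. Peaks with a neighbour within 100 kb on both sides had 8.45% higher and 5.97% lower calls of 27131 tested. The median log2 fold change, primary tumour minus naive, was -0.14 over tested isolated peaks and -0.01 over all tested peaks. These medians were 0.10 and 0.01 without primary tumour replicate 1. With offsets that follow abundance, which remove a trend with peak strength, 40 isolated peaks were called higher and 91 lower, and 9.03% of isolated peaks then fell. Over all tested peaks 8.19% then rose and 6.32% fell. With total-count scaling the counts of isolated peaks were 41 (4.07%) and 58 (5.75%), beside 8.18% and 5.39% over all tested peaks. The excess of losses over gains rested on primary tumour replicate 1: without it, 62 isolated peaks were called higher and 62 lower. That fit tested 1190 isolated peaks, so each share was 5.21%. Over all its tested peaks the shares were 8.08% higher and 6.41% lower. Without both deepest libraries, a choice made after the data were seen, the counts were 34 and 33, and 59 of the 118 calls remained. The shares of isolated peaks were 2.99% and 2.90%, beside 5.03% and 3.49% over all tested peaks. Without naive replicate 2 the counts were 20 and 33, and over all tested peaks the shares were then 3.59% higher and 2.23% lower. The share of gains among calls was smaller at isolated peaks than at peaks that were not isolated in the fit as described and in all 16 alternatives, with 30.3% to 50.7% against 55.6% to 62.4%.

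In the fit as described, the share of peaks that rose went down step by step with distance. Within the same limits of width and score, 9.74% of tested peaks with a neighbour up to 5 kb away were called higher, 7.88% at 5 to 20 kb, 6.25% at 20 to 50 kb, 5.29% at 50 to 100 kb and 4.27% for isolated peaks. The shares called lower were 6.41%, 6.02%, 6.25%, 7.26% and 7.44% in the same order. The tested peaks also differed in strength, with median CPM of 15.0, 15.1, 13.8, 11.9 and 9.19. Within each bin of mean CPM the share called higher was smaller for isolated peaks, with 3.12%, 5.66%, 6.94% and 1.12% from the weakest to the strongest bin against 5.36%, 9.29%, 10.6% and 7.14% for peaks that were not isolated. The shares called lower were 4.57%, 7.92%, 12.1% and 12.4% against 2.21%, 5.04%, 8.30% and 10.9%. With abundance-trended offsets the shares called lower were 7.48%, 10.9%, 11.6% and 6.74% for isolated peaks against 3.66%, 6.15%, 8.09% and 8.21%, so in the strongest bin the order turned, with 6 in place of 11 isolated peaks called lower. The share called higher stayed smaller for isolated peaks in each bin, with 3.12%, 4.53%, 6.94% and 1.12% against 4.47%, 7.64%, 10.4% and 10.03%. In the fit as described and in each of 16 alternatives, isolated peaks had the smallest share called higher of the 5 distance classes. Their share called lower was the largest in 7 of these 17 fits and the smallest in 3. Without primary tumour replicate 1 it was 5.21%, against 6.20% at 50 to 100 kb. The steps in the share called higher did not all hold without that library, with 6.61% at 20 to 50 kb and 6.67% at 50 to 100 kb. Nor did they without both deepest libraries, with 3.94% and 4.08%.

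**Figure D3:**
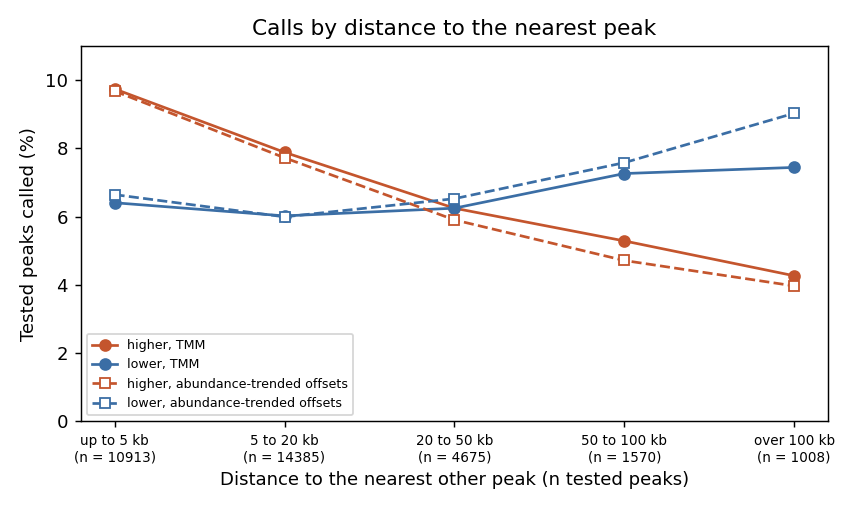
Percentage of tested peaks called higher (orange) and lower (blue) in primary tumour lines by distance to the nearest other peak, for peaks under 2000 bp and a score under 200; filled marks use TMM scaling and open marks abundance-trended offsets. The share called higher goes from 9.74% up to 5 kb to 4.27% over 100 kb.

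Where an isolated peak was called, the change was often large. All 43 that rose did so at least 2-fold, 25 at least 4-fold and 4 at least 8-fold. Of the 75 that fell, 64 changed at least 2-fold, 30 at least 4-fold and 6 at least 8-fold. Of all 2893 called peaks that rose, 2569, 899 and 152 met these limits, and of all 2317 that fell, 1610, 365 and 44. The median log2 fold change was 2.12 among peaks that rose and -1.72 among peaks that fell, against 1.71 and -1.32 among called peaks that were not isolated. Weak peaks need a larger change to pass the test, and called isolated peaks were weaker, with medians of 10.9 CPM (higher) and 13.9 CPM (lower) against 16.6 and 24.0 CPM. The groups did not overlap at 40 of the 43 peaks that rose or at 71 of the 75 that fell. Among all called peaks this held in a like measure, for 2746 of 2893 that rose and 2223 of 2317 that fell. Over all tested isolated peaks 7.64% were separated upward and 14.4% downward, and over all tested peaks 15.5% and 15.3%.

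**Figure D4:**
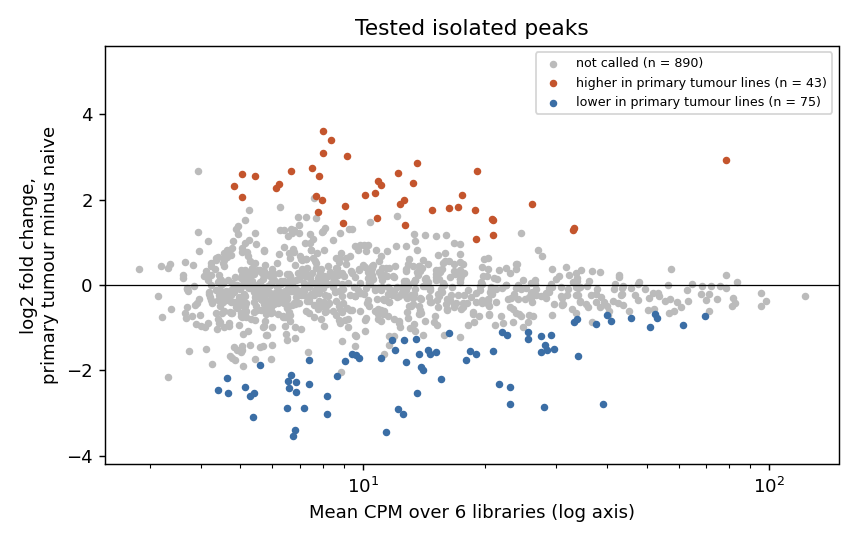
Log2 fold change against mean CPM (log axis) for the 1008 tested isolated peaks, 1 dot per peak. The 43 peaks that rose are orange, the 75 that fell are blue and the 890 not called are grey; under TMM scaling all but 1 of the 12 calls in the strongest bin of mean CPM were lower.

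The strongest gain in reads was on chromosome 12 from 12816978 to 12818311. Naive replicates 1 to 3 had 20.6, 23.7 and 9.40 CPM there, and the primary tumour lines, in the same order, had 155, 146 and 117 CPM. The 3 lines were close to each other and far above every naive library. Accessibility was 139 ± 19.5 CPM against 17.9 ± 7.52 CPM (SD, n = 3 each), or a log2 difference of 2.93 (SE 0.27) at an adjusted p = 1.48e-07 (edgeR). This peak is 1333 bp wide, with its neighbours 279.7 and 131 kb away and 11 and 3 skipped numbers between them. Among the 10 isolated peaks with the highest fold changes it was the only one above 50 CPM in any primary tumour library other than a peak on chromosome 19.

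That peak, on chromosome 19 from 33297045 to 33298008, showed how far the lines could differ. The naive libraries had 5.15, 4.96 and 5.12 CPM, and the lines had 9.13, 56.1 and 34.6 CPM. Naive organoids were nearly equal, while primary tumour replicate 1 was little above them. The log2 fold change was 2.68 (SE 0.52, adjusted p = 0.00142, edgeR), and 2.06 without primary tumour replicate 2. A peak on chromosome 2 from 160089643 to 160090648 was carried mostly by primary tumour replicate 2, with 9.70, 49.2 and 12.8 CPM in the lines and 4.29, 3.12 and 2.56 CPM in naive organoids. Its log2 fold change was 2.86 (adjusted p = 0.00182, edgeR), and without primary tumour replicate 2 it was 1.78 and no longer passed (adjusted p = 0.0566, edgeR). In 26 of the 43 isolated peaks that rose, the highest value was in primary tumour replicate 2, in 10 in replicate 3 and in 7 in replicate 1. Among the 75 that fell, the lowest line was primary tumour replicate 1 at 34, replicate 2 at 21 and replicate 3 at 20. These counts are not set beside those of other called peaks, so they cannot be read as particular to isolated peaks.

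Chromosome 9 held 3 of the 10 peaks with the highest fold changes. From 38263580 to 38264211, naive organoids had 0, 10 and 2 reads and primary tumour lines 45, 31 and 34, or 0.897 ± 0.919 against 15.1 ± 1.99 CPM. This was the highest fold change of all tested isolated peaks, 12.1-fold (log2 fold change 3.60, SE 0.61, adjusted p = 0.000253, edgeR), and 4.62 on the log2 scale without naive replicate 2. The peak lay 263 kb from its nearest neighbour. From 103801557 to 103802039 there were 2, 3 and 6 naive reads and 46, 24 and 41 reads in the lines (log2 fold change 3.39, adjusted p = 0.000480, edgeR). There the value was 2.71 without naive replicate 2 and 4.09 without naive replicate 3, since the naive side rests on few reads. From 53824666 to 53825982 the naive libraries had 5.15, 0.367 and 2.14 CPM and the lines 6.27, 28.0 and 12.8 CPM, so that the groups were separated by little. The log2 fold change was 3.01 (adjusted p = 0.00842, edgeR). It was 3.86 without naive replicate 1, and it did not pass without naive replicate 2 (2.18, adjusted p = 0.0734) or without primary tumour replicate 2 (2.24, adjusted p = 0.0727).

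The other 4 of the 10 had log2 fold changes between 2.62 and 3.08. On chromosome 1 from 80444167 to 80444780 the naive libraries were nearly equal at 1.72, 1.65 and 1.71 CPM, and the lines had 24.0, 9.53 and 9.49 CPM. Its log2 fold change of 3.08 (adjusted p = 0.000751, edgeR) was 2.47 without primary tumour replicate 1, the highest line. On chromosome 2 from 65825413 to 65826192, naive organoids were close together too, with 1.75 ± 0.0724 CPM against 11.6 ± 3.78 CPM. The peak at 49210123 to 49210604 on chromosome 4 went from 1.90 ± 0.216 CPM in naive organoids to 13.1 ± 5.71 CPM. On chromosome 13 from 19795656 to 19797121, a 1465 bp peak, the levels were 3.98 ± 2.65 and 20.5 ± 7.86 CPM. Without both deepest libraries the chromosome 13 peak went from a log2 fold change of 2.62 to 1.78 and still passed (adjusted p = 0.0449, edgeR). The 10 peaks lay on 7 chromosomes.

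Losses were largest on chromosome 1 from 25944840 to 25945185, a peak of 345 bp inside a run of 11 isolated peaks. The naive libraries had 12.9, 11.8 and 12.8 CPM and the lines 1.43, 0.529 and 0.949 CPM. In reads, the lines held 5, 1 and 2 against 15, 64 and 30 in naive organoids, so every line was far below every naive library. The log2 fold change was -3.53 (11.5-fold lower, SE 0.62, adjusted p = 0.000364, edgeR). That run spans 5.86 Mb from 24503241 to 30367660, and 2 of its 5 tested peaks fell, too few to read a share from. A loss on chromosome 13 from 96945645 to 96946043 had 21.4, 21.7 and 19.6 CPM in naive organoids and 1.71, 1.59 and 2.37 CPM in the lines. Its neighbours lay 136 and 212 kb away with no skipped number on either side, so it was isolated among all numbered peaks.

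On chromosome 6, a pair of isolated peaks were among the 10 lowest. From 15937452 to 15937909 there were 15, 55 and 33 naive reads and 2, 6 and 0 reads in the lines (log2 fold change -3.40, adjusted p = 0.00214, edgeR). This peak had 1808 kb to its left and 640.3 kb to its right without another peak in the table. Its value was -4.98 without primary tumour replicate 2. From 36931751 to 36932518 the naive level was 21.4 ± 3.02 CPM and that of the lines 3.02 ± 1.81 CPM (log2 fold change -2.91, adjusted p = 0.000257, edgeR), and the log2 fold change was -2.32 without both deepest libraries.

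Chromosome 14 and chromosome 4 each held another pair. On chromosome 14 from 15352744 to 15352986, a narrow peak of 242 bp, the level was 9.59 ± 1.42 CPM in naive organoids and 1.15 ± 0.860 CPM in the lines. The log2 fold change was -3.10, and -3.72 without primary tumour replicate 2. On the same chromosome from 101459844 to 101460325 the naive libraries were spread, at 17.2, 11.4 and 5.98 CPM, above 1.14, 0 and 3.32 CPM in the lines. That peak had a log2 fold change of -2.88 (adjusted p = 0.00733, edgeR), -3.90 without primary tumour replicate 3, and it did not pass without naive replicate 2 (adjusted p = 0.0551) or without both deepest libraries (adjusted p = 0.0513). On chromosome 4 from 72526533 to 72527016 the lines held 4, 0 and 9 reads against 12, 93 and 38 (log2 fold change -3.03, and -4.30 without primary tumour replicate 3). From 143426163 to 143426564 they held 0, 5 and 6 reads against 19, 55 and 26 (log2 fold change -2.88). The last value was -2.11 without primary tumour replicate 1, -3.48 without replicate 3 and -2.25 without both deepest libraries.

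The strongest naive signal among the 10 losses was on chromosome 7 from 137081117 to 137081935, and it was also the least even. Naive replicates 1, 2 and 3 had 46.3, 79.2 and 20.9 CPM, and the lines had 2.57, 5.29 and 13.8 CPM. The groups did not overlap, but primary tumour replicate 3 came near naive replicate 3. The log2 fold change was -2.85 (SE 0.56, adjusted p = 0.00445, edgeR). It ran from -3.74 without primary tumour replicate 3 to -2.23 without naive replicate 2 and -1.73 without both deepest libraries, and without primary tumour replicate 2 it did not pass (-2.74, adjusted p = 0.0926). On chromosome 8 from 31697887 to 31698467 the naive libraries had 27.5, 27.4 and 12.0 CPM and the lines 1.14, 5.29 and 2.37 CPM (log2 fold change -3.01, -3.72 without primary tumour replicate 2 and -2.29 without both deepest libraries). The 10 losses also lay on 7 chromosomes. They were 242 to 818 bp wide, and the 10 gains 481 to 1465 bp. Over all called isolated peaks the median widths were close, at 767 bp for losses and 779 bp for gains.

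**Figure D5:**
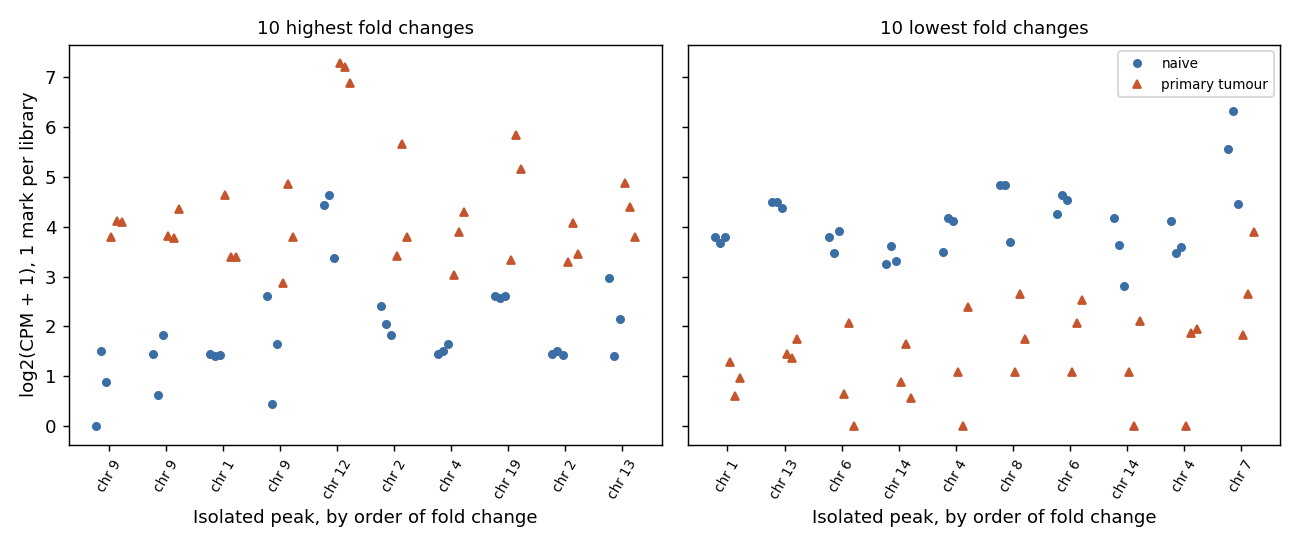
log2(CPM + 1) in each library for the 10 isolated peaks with the highest (left) and the 10 with the lowest fold changes (right), in order of fold change; blue dots are naive libraries and orange triangles primary tumour lines. The groups do not overlap at any of the 20 peaks, as the rule that chose them requires.

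The most isolated peaks were mostly too weak to test. The peak farthest from any other was on chromosome 19 from 51189095 to 51189368, with 1894 kb to the nearest peak and 3, 7 and 8 naive reads against 5, 10 and 8 in the lines. Of the 5 most isolated peaks, 3 lay on chromosome 14 and 1 on chromosome X, and the filter left only the last to test. This peak, from 114968064 to 114969802, had 12.99 ± 6.65 CPM in naive organoids and 10.6 ± 6.94 CPM in primary tumour lines, a log2 fold change of -0.24 (SE 0.52), and the groups overlapped. Of the 62 tested peaks over 500 kb from any other, 2 rose (3.23%) and 1 fell (1.61%), beside 8.00% and 6.40% over all tested peaks. These 62 were weak, with a median of 6.62 CPM. At 200 to 500 kb 11 rose (3.53%) and 33 fell (10.6%) of 312, with a median of 8.45 CPM. At 100 to 200 kb 30 rose (4.73%) and 41 fell (6.47%) of 634, with a median of 10.4 CPM. The part of peak strength in these shares was not tested.

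The 5 strongest isolated peaks changed little. These peaks, with the highest mean CPM, had log2 fold changes between -0.48 and 0.07, and none was called. On chromosome 2 from 53049842 to 53051408 the naive libraries had 112, 164 and 124 CPM and the lines 118, 106 and 112 CPM, so the groups overlapped. Those on chromosome 5 from 86494055 to 86495822 and chromosome 9 from 121766231 to 121767378 were lower in all 3 lines, with 86.1 ± 8.37 against 111 ± 7.10 CPM and 80.0 ± 7.31 against 111 ± 17.5 CPM. The adjusted p-values were 0.221 and 0.107 (edgeR). The other two lay on chromosome 12 from 79326795 to 79328279 (101 ± 31.6 CPM naive, 90.4 ± 13.4 CPM primary tumour) and chromosome 7 from 66483570 to 66484897 (81.3 ± 10.7 and 86.1 ± 4.53 CPM). These 5 were 1147 to 1767 bp wide. They do not stand for all strong isolated peaks. In the strongest bin of mean CPM, 1 of 89 rose (1.12%) and 11 fell (12.4%), beside 7.14% and 10.9% of peaks that were not isolated. With abundance-trended offsets 6 of the 89 fell (6.74%).

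Isolated peaks with almost no difference between the group means were not always steady. On chromosome 12 from 79050039 to 79051100 the naive libraries had 18.02, 16.0 and 14.1 CPM and the lines 18.8, 9.53 and 18.97 CPM (log2 fold change 0.00, SE 0.37). On chromosome 6 from 59158633 to 59159456 the level was 22.0 ± 9.88 CPM in naive organoids and 23.0 ± 1.59 CPM in the lines. On chromosome 7 from 58582139 to 58583794 it was 23.0 ± 13.6 and 21.9 ± 8.93 CPM, with naive values of 37.8, 10.8 and 20.5 CPM.

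Peaks on either side of the 100 kb limit had values of both kinds. Just inside it, at 100.02, 100.02 and 100.03 kb from the next peak, were peaks at 81130188 to 81130974 on chromosome 18, 42044703 to 42045050 on chromosome 13 and 49644365 to 49645412 on chromosome 4, with log2 fold changes of -0.37, -1.18 and -0.21. Just outside it were peaks on chromosome 15 from 82451216 to 82452704 at 99.98 kb and chromosome 9 from 46440758 to 46441230 at 99.89 kb, with -1.19 (adjusted p = 0.0470, edgeR) and 1.69 (adjusted p = 0.0509, edgeR), and a peak on chromosome 3 from 141272667 to 141272970 at 99.97 kb, which was not tested.

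Isolated peaks changed less in step with their neighbours than crowded peaks did. Across 1007 tested isolated peaks, the fold change had a Pearson's r of 0.15 (Spearman's rho 0.11) with that of the nearest tested peak, at a median distance of 193 kb. For peaks within the same limits and a neighbour up to 5 kb away r was 0.48 (rho 0.44, 10911 peaks), and it was 0.33, 0.27 and 0.24 at 5 to 20, 20 to 50 and 50 to 100 kb. All these peaks share the same 6 libraries, and isolated peaks hold fewer reads. Of 118 called isolated peaks, 21 (17.8%) had a nearest tested peak called in the same direction and 2 in the opposite one. With a neighbour up to 5 kb away, 32.2% of 1762 called peaks had a neighbour called in the same direction, and at 5 to 20, 20 to 50 and 50 to 100 kb the shares were 22.2%, 17.98% and 21.3%. In this measure isolated peaks were close to peaks with a neighbour 20 to 50 kb away.

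Calls at isolated peaks were few on each chromosome, and differences between chromosomes were not tested. On chromosome 10, 2 rose and 9 fell of 53 tested, beside 16.6% of all its tested peaks called in either direction. On chromosome 4, 1 rose and 7 fell of 60, beside 13.9%. On chromosome 9, 6 rose and 2 fell of 46, beside 15.0%, and on chromosome 19, 4 rose and 0 fell of 22, beside 12.3%. Chromosome X had 0 higher and 1 lower call of 91 tested isolated peaks, beside 6.63% of all its tested peaks called. On chromosome 13, where 2 rose and 6 fell of 43 beside 18.4% of all its tested peaks called, the median log2 ratio of isolated peaks to the naive mean was -0.64 in primary tumour replicate 2, and that of all peaks was -0.69. In primary tumour replicate 1 the same median for isolated peaks was below 0 on every autosome, from -0.83 on chromosome 5 to -0.18 on chromosome 2. On chromosome 18, where all peaks stood at 0.27 in that library, isolated peaks stood at -0.67. Counted outside chromosomes 4, 5, 13, 18 and 19, where single lines stood apart, a choice made after the data were seen, 34 isolated peaks rose and 56 fell, and with an offset for each library and 10 Mb window 47 rose and 78 fell.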

How the data were processed

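Read counts per peak in 6 libraries, 3 per group, were used as the authors deposited them, in 1 table with the position, width and score of each peak on the mm9 build. The submitters' processing notes name Bowtie, SAMtools, Picard, bedtools and MACS2, and the sources used here do not give how reads were counted or peaks left out. Positions are printed as in the table, and whether starts count from 0 or 1 is not given there either. Isolated peaks and all lists were chosen with earlier results of these data known.

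Peaks were filtered with filterByExpr, scaled by TMM and tested by edgeR's quasi-likelihood method in its robust form (edgeR 4.0.16, R 4.3.3), with 2-sided p-values. P-values were adjusted by Benjamini-Hochberg over all 36179 tested peaks and called under 0.05. The fit was tested on simulated data. Fold changes are primary tumour against naive. DESeq2 1.42.0, other scalings, filters and offsets, a replicate block and each library left out were the alternatives. The offsets followed abundance, or each library and 10 Mb window.

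Named peaks are the 10 highest and 10 lowest fold changes among called peaks with at least 2-fold change, groups that do not overlap and a mean of at least 10 reads, which 102 isolated peaks met. The 5 most isolated, the 5 strongest, the 3 strong ones with the least change and the 3 nearest the 100 kb limit on each side were added.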

Additional observations from a re-analysis of the deposited data

How the results depend on the processing

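The 43 higher and 75 lower calls at isolated peaks depended most on which libraries and peaks were used. With at least 20 counts in at least 3 libraries, 36 were called higher (6.24%) and 44 lower (7.63%), of 577 isolated peaks tested. Over all peaks tested with that filter the shares were 9.47% and 6.62%. Leaving out each library in turn gave 20 to 62 higher and 33 to 76 lower calls. As shares of tested isolated peaks these were 1.68% to 5.21% higher and 2.77% to 6.12% lower. Over all tested peaks the shares ran from 3.59% to 8.08% and from 2.23% to 6.41%. Both lowest counts came without naive replicate 2, the deepest library. The shares of tested isolated peaks were then 1.68% higher and 2.77% lower. Over all tested peaks they were 3.59% and 2.23%, in place of 8.00% and 6.40% in the fit as described. Without naive replicate 2 and primary tumour replicate 1 together, 34 were called higher (2.99%) and 33 lower (2.90%). Over all peaks tested without both the shares were 5.03% and 3.49%. Among the 108 isolated peaks with no skipped number on either side, 58 were tested. Of these, 1 was called higher and 7 lower, beside 8.00% and 6.40% over all tested peaks in the fit as described. These last 2 choices were made after seeing the data. With the replicate number as a block, 28 were called higher (2.78%) and 49 lower (4.86%), beside 5.45% and 4.33% over all tested peaks. Libraries with the same number did not deviate together (r of -0.23, -0.11 and 0.01 across peaks), so the numbers were not taken as pairs. No called isolated peak changed sign in 16 alternatives, and 52 to 114 of the 118 calls remained in each. Of the 10 highest and the 10 lowest fold changes, 8 and 8 kept the call in every alternative in which they were tested. Depth limits the precision at isolated peaks, 43.1% of which held a mean of under 10 reads, and 821 were not tested.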
